A study of Mus musculus with 45 samples.

Results

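The liver genes of bile acid synthesis and conjugation were followed across 45 mouse livers exposed to TCDD (2,3,7,8-tetrachlorodibenzo-p-dioxin), a persistent ligand of the aryl hydrocarbon receptor. The 10 genes were chosen by their known role, with earlier results of these data known. They were Cyp7a1, Cyp8b1, Cyp27a1, Cyp7b1, Cyp39a1, Hsd3b7, Akr1d1, Amacr, Slc27a5 and Baat, out of 39179 genes in the count files. All 10 were among the 17464 genes with more than 4 reads in at least 1 liver. At the highest dose 5 of them were lower than in vehicle, where 14.1% of all genes tested were lower, none was higher, where 15.5% of all genes were, and no called change from vehicle reached 2-fold at any dose. At intermediate doses Cyp7b1 alone was higher, while at 30 µg/kg it was below every vehicle mouse in 4 of 5 mice, a difference that did not pass the test.

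Female C57BL/6 mice received sesame oil (vehicle) or 1 of 8 doses of TCDD by gavage every 4 days for 28 days, with 5 mice in each of the 9 groups. The doses were 0.01, 0.03 and 0.1 µg/kg at the low end, 0.3, 1 and 3 µg/kg in the middle, and 10 and 30 µg/kg at the top. Dosing began on postnatal day 28, and all groups share strain, sex, schedule and the sesame oil. The labels also describe the animals as ovariectomized, which the study's methods do not mention, and carry the word daily beside the 4-day interval, which the methods give alone. The groups ask how the genes respond across a range of repeated doses, in whole liver RNA, in which fewer hepatocytes and less RNA per hepatocyte cannot be told apart.

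Bile acids are made from cholesterol in hepatocytes. In the classic route Cyp7a1 takes the first and rate-limiting step and Cyp8b1 sets how much cholic acid is formed, while the alternative route starts from oxysterols, those made by Cyp27a1 being taken on by Cyp7b1 and the one made by Cyp46a1 by Cyp39a1. Hsd3b7 and Akr1d1 then modify the steroid ring, Amacr inverts a side-chain centre in the peroxisome, Slc27a5 activates bile acids with coenzyme A, and Baat joins them to taurine or glycine.

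Between 11767284 and 56509899 reads per mouse fell on genes (median 17225047). The 10 genes held between 276 reads (the lowest Cyp7b1 count) and 63167 reads (the highest Slc27a5 count) in a library. Counting error was not computed. It weighs most where counts are low and the spread is small, as for Cyp7b1 at 0.3 µg/kg (633 to 1275 reads, coefficient of variation 5.63%). Levels are given as CPM, the read count scaled to a common library size after TMM normalization, and changes are log2 fold changes from edgeR's quasi-likelihood fit with their standard errors. Every adjusted p against vehicle is from that fit with Benjamini-Hochberg adjustment over all genes tested, and a gene was called at an adjusted p under 0.05. Cyp1a1, the classic target of the receptor and here the check of exposure, had 1.34 to 16.7 CPM in vehicle and 6020 to 9064 CPM at 30 µg/kg. One mouse at 0.01 µg/kg, replicate 5, stood apart with 69.7 CPM of Cyp1a1 against 1.18 to 4.54 in the other 4, and with a summed level of 9 macrophage markers of 794 CPM. The count of bile acid genes called at 0.01 µg/kg was 0 with it and without it. As 0 of the 17464 genes tested were called at that dose, this count could not show an effect of the mouse. Without it Cyp7b1 at 30 µg/kg was called lower in the shared fit, as given in the closing section.

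Per kilobase of exon, Slc27a5 was the most abundant of the 10 genes in vehicle livers at 459 ± 24.6 CPM per kb (SD, n = 5), and Cyp7b1 the least at 14.98 ± 2.09. In between stood Cyp27a1 at 211 ± 23.9, Akr1d1 at 186 ± 21.9, Baat at 160 ± 8.29, Hsd3b7 at 129 ± 21.2, Cyp7a1 at 107 ± 53.4, Cyp8b1 at 73.4 ± 16.4, Amacr at 49.8 ± 3.30 and Cyp39a1 at 34.1 ± 6.03 CPM per kb. Each gene from Cyp27a1 down to Cyp8b1 overlapped its neighbour in this order over the 5 mice. Slc27a5 and Cyp27a1 did not overlap, nor did Cyp8b1 and Amacr, Amacr and Cyp39a1, or Cyp39a1 and Cyp7b1. At 30 µg/kg the order of means was the same except that Cyp8b1, at 68.4 ± 21.3, stood just above Cyp7a1, at 66.4 ± 41.9 CPM per kb, and these overlapped.

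**Figure D1:**
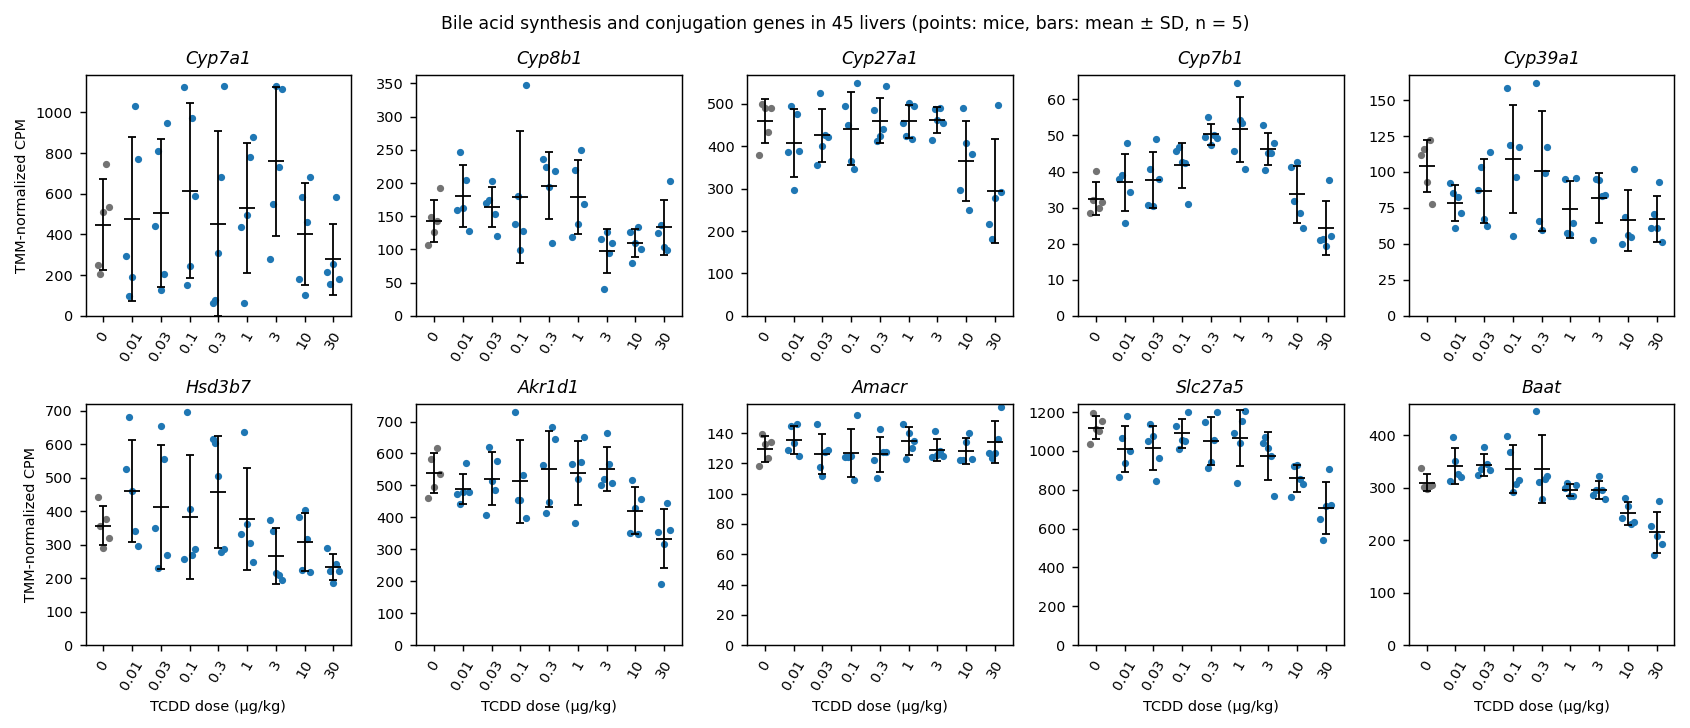
TMM-normalized CPM (vertical axes, linear and from 0) of the 10 genes against TCDD dose in µg/kg (horizontal axes, equally spaced groups, 0 is vehicle). Points are mice, and bars are the mean ± SD of 5. Slc27a5, Baat and Akr1d1 are lowest at 30 µg/kg, Cyp7b1 is highest at 1 µg/kg with a mean of 51.7 CPM and lowest at 30 µg/kg with 24.3, Amacr stays between 109.4 and 157.1 CPM, and Cyp7a1 spreads widely within every group.

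Counts of called genes grew only at the higher doses. At 0.01, 0.03 and 0.1 µg/kg 0 of the 10 genes were called by edgeR or by DESeq2, against 0%, 0.0573% and 0.0229% of all genes tested, and 0, 0 and 1 gene had an unadjusted p under 0.05. At 0.3 µg/kg edgeR called 0 of 10 (0.464% of all genes), with 1 at an unadjusted p under 0.05, and DESeq2 called 1. At 1 and at 3 µg/kg 1 of 10 was called, Cyp7b1 in both and higher in both, where 1.24% and 4.34% of all genes were called higher. At 10 µg/kg 2 of 10 were lower (7.47% of all genes were) and at 30 µg/kg 5 of 10 were lower (14.1% of all genes were). None was called higher at 10 or 30 µg/kg, where 8.47% and 15.5% of all genes were, and 4 and 7 of the 10 had an unadjusted p under 0.05 in either direction. Shares of all genes at an unadjusted p under 0.05 were not computed. After adjustment 15.9% and 29.6% of all genes were called in either direction at these 2 doses. With a change of at least 2-fold also required, 0 of the 10 were called at 30 µg/kg, against 11.4% of all genes. The median log2 change of the 10 genes was -0.04 at 3, -0.31 at 10 and -0.62 at 30 µg/kg, beside 0.01, 0.02 and 0.02 over all genes tested. These 8 comparisons share the 5 vehicle mice.

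**Figure D2:**
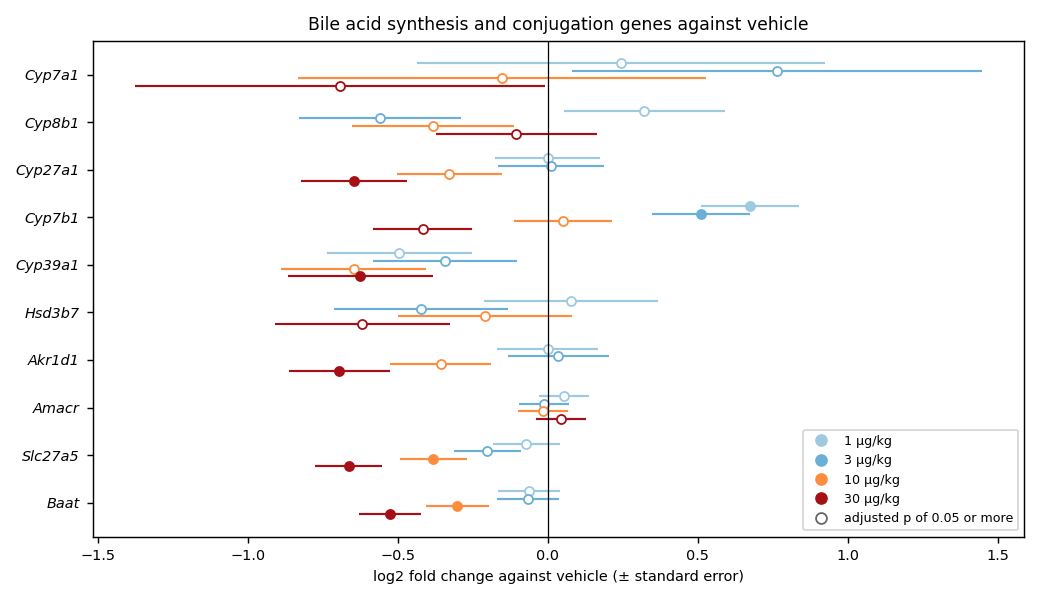
Log2 fold change against vehicle (horizontal axis, ± standard error of the edgeR fit) of the 10 genes at the 4 highest doses, by colour. Filled points have an adjusted p under 0.05, namely Cyp7b1 at 1 and 3 µg/kg to the right of 0, and Slc27a5 and Baat at 10 µg/kg and Cyp27a1, Cyp39a1, Akr1d1, Slc27a5 and Baat at 30 µg/kg to the left.

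The conjugation genes fell at both of the highest doses. Slc27a5 (ENSMUSG00000030382, GRCm38 chr7:12988346-12998192, minus strand), the bile acid CoA ligase, stood at 1036, 1197, 1113, 1102 and 1152 CPM in the vehicle mice. It stood at 761, 923, 930, 853 and 832 CPM at 10 µg/kg and at 650, 541, 719, 907 and 720 CPM at 30 µg/kg. Every mouse of both dose groups was below every vehicle mouse, as was the case for 6.13% of all genes at 10 and 9.57% at 30 µg/kg. The log2 change was -0.38 ± 0.11 at 10 µg/kg (adjusted p = 0.0142) and -0.66 ± 0.11 at 30 µg/kg (adjusted p = 1.12e-05, 1.58-fold lower). An exact permutation test of 5 mice against 5 at 30 µg/kg gave p = 0.007937 (two-sided), the smallest it can give.

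Baat (ENSMUSG00000039653, chr4:49489422-49506557, minus strand), the enzyme that links bile acids to an amino acid, was in vehicle at 338, 302, 298, 303 and 306 CPM. At 10 µg/kg it was at 243, 281, 266, 232 and 235 CPM, and at 30 µg/kg at 227, 172, 208, 275 and 193 CPM. Every mouse of both dose groups was again below every vehicle mouse (6.13% of all genes at 10 and 9.57% at 30 µg/kg). The log2 change was -0.30 ± 0.10 at 10 µg/kg (adjusted p = 0.0403) and -0.53 ± 0.10 at 30 µg/kg (adjusted p = 0.000122, 1.44-fold lower), with p = 0.007937 by the exact permutation test at 30 µg/kg. Of the 2 calls at 10 µg/kg 1 was lost on leaving out vehicle replicate 1, 2 or 4 or 10 µg/kg replicate 1 or 4.

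Akr1d1 (ENSMUSG00000038641, chr6:37530173-37568815, plus strand), the ring reductase shared by both routes, also separated at 30 µg/kg. Its vehicle levels were 461, 584, 496, 616 and 536 CPM, against 353, 191, 315, 445 and 360 CPM at 30 µg/kg. The highest treated mouse, replicate 4, was just under the lowest vehicle mouse, and 9.57% of all genes were likewise all below vehicle. The log2 change was -0.69 ± 0.17 (adjusted p = 0.0015, 1.62-fold lower, exact permutation p = 0.007937), and at 10 µg/kg it was -0.36 ± 0.17 (adjusted p = 0.149). Hsd3b7 (ENSMUSG00000042289, chr7:127800604-127803802, plus strand), the dehydrogenase that acts just before Akr1d1, was at 444, 355, 290, 376 and 320 CPM in vehicle and at 290, 223, 185, 242 and 222 CPM at 30 µg/kg. The groups overlapped through the lowest vehicle mouse. Its log2 change of -0.62 ± 0.29 was not called (adjusted p = 0.107), while the exact permutation test of these 10 mice gave p = 0.0159, and the fit of vehicle and 30 µg/kg mice alone gave an adjusted p of 0.00259 with edgeR. Hsd3b7 shares exon bases in the GENCODE annotation with Gm49388 on its own strand (1717 bases) and with 9430064I24Rik on the other (1729 bases), neither of which was counted in the files, so its reads cannot be assigned to it alone.

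Among the oxysterol enzymes was the only called rise of the 10 genes. Cyp7b1 (ENSMUSG00000039519, chr3:18071950-18243338, minus strand), the oxysterol hydroxylase that follows Cyp27a1, was at 28.4, 32.2, 40.1, 29.8 and 31.7 CPM in vehicle. It reached 49.6, 55.04, 47.5, 50.1 and 49.3 CPM at 0.3 µg/kg, and 45.7, 64.5, 54.2, 53.5 and 40.7 CPM at 1 µg/kg. All mice at these doses lay above all vehicle mice, which was true for 0.933% and 2.74% of all genes. At 3 µg/kg the levels were 52.8, 40.3, 45.2, 45.2 and 47.8 CPM, again all above vehicle (4.6% of all genes). At 10 µg/kg they were 41.2, 31.9, 42.5, 28.4 and 24.2 CPM and spread over the vehicle range, and at 30 µg/kg they were 21.01, 21.4, 19.4, 37.7 and 22.1 CPM. At that dose 4 mice were below every vehicle mouse and replicate 4 was within the vehicle range.

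In log2 terms Cyp7b1 changed by 0.36 ± 0.16 at 0.1 µg/kg (adjusted p = 0.893), 0.63 ± 0.16 at 0.3 µg/kg (adjusted p = 0.0699), 0.67 ± 0.16 at 1 µg/kg (adjusted p = 0.0178, 1.6-fold higher) and 0.51 ± 0.16 at 3 µg/kg (adjusted p = 0.0464, 1.42-fold higher). At 10 µg/kg the difference was 0.05 ± 0.16 (adjusted p = 0.881) and at 30 µg/kg -0.42 ± 0.17 (adjusted p = 0.0516). Leaving out 30 µg/kg replicate 4, the highest of its group, gave -0.63 with an adjusted p of 0.00194, a larger fall that follows from that choice. The call at 1 µg/kg was lost without vehicle replicate 1 or 4 or 1 µg/kg replicate 2, and that at 3 µg/kg without any 1 of vehicle replicates 1, 2, 4 and 5 or 3 µg/kg replicates 1, 3, 4 and 5.

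Setting 30 against 1 µg/kg leaves the vehicle mice out of the difference, though they share the fit that gave its spread. These doses hold the lowest and the highest group mean of Cyp7b1 and were chosen after the values were seen, so its difference, lower at 30 µg/kg by 2.13-fold (log2 -1.09 ± 0.17), is a description without a test. In this contrast edgeR called 5 of the 10 genes lower, Cyp7b1 among them (8.85% of all genes were) and 0 were higher (8.62% of all genes were), with all 10 differences below 0. The other 4 were Akr1d1 (-0.69, adjusted p = 0.00264), Cyp27a1 (-0.64, adjusted p = 0.00773), Slc27a5 (-0.59, adjusted p = 0.000125) and Baat (-0.46, adjusted p = 0.00111). The count stayed at 5 under each other normalization and filter tried and on leaving out any 1 of the 10 mice. Because Cyp7b1 guided the choice of doses, its place in the count was built in. The steadiness of the count therefore adds no support for that gene.

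Cyp27a1 (ENSMUSG00000026170, chr1:74713574-74737892, plus strand), the mitochondrial sterol hydroxylase that opens the alternative route and oxidizes the side chain in both, was at 378, 500, 491, 434 and 490 CPM in vehicle and at 217, 182, 279, 498 and 292 CPM at 30 µg/kg. All treated mice but replicate 4 were below every vehicle mouse, and that mouse was close to the highest of them. The log2 change was -0.64 ± 0.18 (adjusted p = 0.00457, 1.56-fold lower, exact permutation p = 0.0397). Without that mouse, the highest of its group, it was -0.92, a larger fall that follows from leaving out the highest value. Up to 3 µg/kg its group means stayed between 408.3 and 462.0 CPM, beside 458.8 in vehicle.

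Cyp39a1 (ENSMUSG00000023963, chr17:43667425-43751431, plus strand), a hydroxylase of oxysterols, was at 112, 116, 92.7, 122 and 77.9 CPM in vehicle and at 60.7, 70.9, 61.2, 93.2 and 51.5 CPM at 30 µg/kg. The groups overlapped in the 2 lowest vehicle mice and the highest treated mouse. Its log2 change of -0.62 ± 0.24 was just past the threshold (adjusted p = 0.0457). The call was lost without vehicle replicate 1, 2 or 4 and without 30 µg/kg replicate 1, 2, 3 or 5, where the adjusted p reached 0.119. At 10 µg/kg the change was of like size, -0.65 ± 0.24, and was not called (adjusted p = 0.06).

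The classic route's own enzymes showed no called difference from vehicle at any dose. Cyp7a1 (ENSMUSG00000028240, chr4:6265612-6275633, minus strand) was at 247, 204, 510, 744 and 534 CPM in vehicle and at 213, 156, 253, 583 and 182 CPM at 30 µg/kg, so the groups overlapped broadly. The log2 change at 30 µg/kg was -0.69 ± 0.68 with a 95% confidence interval from -2.07 to 0.69 (adjusted p = 0.484), an interval that also holds changes as large as those of Akr1d1 and Slc27a5. Over the 45 livers Cyp7a1 ran from 61.8 to 1129 CPM, an 18.3-fold range, and its coefficient of variation within a group had a median of 63.03% and reached 100.5% at 0.3 µg/kg. Depth was not the limit, as the lowest library held 788 Cyp7a1 reads.

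Cyp8b1 (ENSMUSG00000050445, chr9:121914356-121916305, minus strand), the enzyme that directs synthesis to cholic acid, was at 107, 149, 126, 142 and 192 CPM in vehicle. It was at 125, 136, 104, 99.1 and 202 CPM at 30 µg/kg, where the change was -0.10 ± 0.27 (95% confidence interval -0.65 to 0.44, adjusted p = 0.813). Its lowest group was 3 µg/kg, at 115, 41.1, 126, 94.9 and 110 CPM, with a log2 change of -0.56 ± 0.27 that was not called (adjusted p = 0.224). Group means were 164.4 to 196.2 CPM from 0.01 to 1 µg/kg and 97.3 to 133.3 CPM from 3 to 30 µg/kg, beside 143.2 CPM in vehicle.

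Amacr (ENSMUSG00000022244, chr15:10981756-10996626, plus strand), the racemase of the side chain, was the steadiest of the 10. It was at 118, 140, 133, 124 and 134 CPM in vehicle and at 127, 123, 127, 136 and 157 CPM at 30 µg/kg, a log2 change of 0.05 ± 0.08 with a 95% confidence interval from -0.12 to 0.21 (adjusted p = 0.73). Its within-group coefficient of variation had a median of 6.85%.

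Across all 9 groups, an F test of the 8 doses together called 6 of the 10 genes (28.8% of all genes). These were Baat (adjusted p = 4.98e-06), Cyp7b1 (1.24e-05), Slc27a5 (0.000166), Akr1d1 (0.0101), Cyp8b1 (0.0244) and Cyp27a1 (0.0437), each by edgeR's quasi-likelihood test. A slope on log10 dose over the 40 TCDD mice alone, which leaves the vehicle out, fell in 5 genes (20.2% of all genes) and rose in 0 (20.1% of all genes), Amacr alone having a slope above 0. Per 10-fold step in dose Hsd3b7 fell by 0.26 ± 0.07 on the log2 scale (adjusted p = 0.00218), Cyp8b1 by 0.20 ± 0.07 (adjusted p = 0.0142), Baat by 0.18 ± 0.03 (adjusted p = 3.32e-07), and Slc27a5 and Akr1d1 by 0.12 each (adjusted p = 0.0013 and 0.0395). Hsd3b7 and Cyp8b1 thus fell over the TCDD doses without being called at any single dose. The Cyp7b1 slope was -0.09 ± 0.06 (adjusted p = 0.2), its levels rising and then falling along the range.

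Replicate 4 at 30 µg/kg had the highest level of its group in 7 of the 10 genes. Its Cyp1a1, at 9064 CPM, was above the 6020 to 8489 CPM of the other 4 mice, and its summed macrophage markers, at 125.7 CPM, were below their 211.0 to 343.0. It was also lowest in the summed endothelial markers (204.2 against 257.0 to 340.7 CPM), stellate markers (504.3 against 586.5 to 705.5) and lymphocyte markers (15.88 against 29.81 to 33.42). Their part in its levels was not tested. Without this mouse 6 of the 10 genes were lower at 30 µg/kg, the 5 above and Cyp7b1. It was singled out for its high levels, so larger falls without it follow from that choice. The share of all genes lower without it was not computed.

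Some of the cell type markers also differed from vehicle at the highest dose. At 30 µg/kg, where 14.1% of all genes tested were lower and 15.5% higher, 7 of 9 hepatocyte markers were lower (median log2 change -0.44). Their summed level was 113000 to 163800 CPM against 125000 to 163200 CPM in vehicle. Higher were 4 of 8 stellate markers (summed 504.3 to 705.5 against 267.7 to 375.8 CPM), 6 of 8 endothelial markers (204.2 to 340.7 against 174.6 to 236.8), 3 of 9 macrophage markers (125.7 to 343.0 against 125.9 to 207.9), 3 of 8 lymphocyte markers (15.9 to 33.4 against 8.39 to 16.1) and, by edgeR, 0 of 8 cholangiocyte markers (65.6 to 82.7 against 62.9 to 86.2, with 0 at an unadjusted p under 0.05). No marker was at 0 in all mice of a group. When each gene was divided by the summed hepatocyte markers of its own liver, a measure added after the values were seen, all 10 genes overlapped between vehicle and 30 µg/kg, and the difference in mean log2 was -0.51 for Akr1d1, -0.50 for Cyp27a1, -0.45 for Slc27a5, -0.41 for Cyp39a1, -0.31 for Baat and 0.27 for Amacr. This sum is mostly Alb, with up to 6435840 reads in a library, against up to 569971 for Ahsg, the next highest marker. Alb passed neither edgeR's F test over all groups (adjusted p = 0.665) nor its trend over doses (adjusted p = 0.329). The ratios are therefore largely ratios to Alb and not to the markers that fell. The part of cell makeup in the changes was not tested beyond these values.

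Within the groups, Cyp7a1 moved against Hsd3b7 from liver to liver. With the group mean taken from each log2 CPM, Pearson's r of the pair over 45 mice was -0.87 and Spearman's rho -0.85, each with p = 1e-05 from 100000 permutations of mice within groups, the smallest they can give (adjusted p = 4.4e-05 and 5.5e-05 over 22 relations of Cyp7a1 computed after the values were seen). Without the 2 mice farthest from the median of Cyp7a1, r was -0.86, and without removal of group means -0.70. In the 1 µg/kg group the mouse with the least Cyp7a1, at 63.04 CPM, had the most Hsd3b7, at 637 CPM. Akr1d1 moved with Cyp7a1 (r 0.58, permutation p = 0.0002, adjusted p = 0.000629; rho 0.62, permutation p = 0.00011, adjusted p = 0.000346), with r 0.57 without the 2 farthest mice and 0.53 pooled. Of the other 7 genes, Slc27a5 passed by r alone (0.36, adjusted permutation p = 0.0428, and 0.106 by rho) and Cyp39a1 by rho alone (0.41, adjusted permutation p = 0.0272, and 0.0636 by r).

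Core clock genes, whose transcripts cycle over the day, varied alongside Cyp7a1 in the same livers. Of 13 clock genes 6 went with Cyp7a1 (Per1, Per2, Per3, Cry1, Ciart and Tef) and 4 against it (Arntl, Clock, Npas2 and Nr1d1) at an adjusted permutation p under 0.05 by both r and rho, while Cry2, Nr1d2 and Dbp did not pass by either. The repressors of the clock were on both sides. Per2 had r 0.83 and rho 0.83 (adjusted permutation p = 4.4e-05 and 5.5e-05), with r 0.87 without the 2 farthest mice and 0.67 pooled. Nr1d1 had r -0.48 and rho -0.63 (adjusted permutation p = 0.0146 and 0.000495), with r -0.69 and -0.41. Arntl, an activator, had r -0.60 and rho -0.53 (adjusted permutation p = 0.00213 and 0.0048), with r -0.49 and -0.53. Npas2 had 0 reads in at least 1 library of every group except 0.01 µg/kg, so its value rests in part on the prior count. The labels give no time of day for each liver, so a link of these values with collection time was not tested. All values of a pair come from the same libraries. Against vehicle at 30 µg/kg 1 of 13 clock genes was called, Cry2, lower by edgeR in the fit of all groups (log2 -0.42, adjusted p = 0.0374), where 14.1% of all genes were lower. When only vehicle and 30 µg/kg mice were fitted 6 of 13 were lower, and the share of all genes in that fit was not computed.

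**Figure D3:**
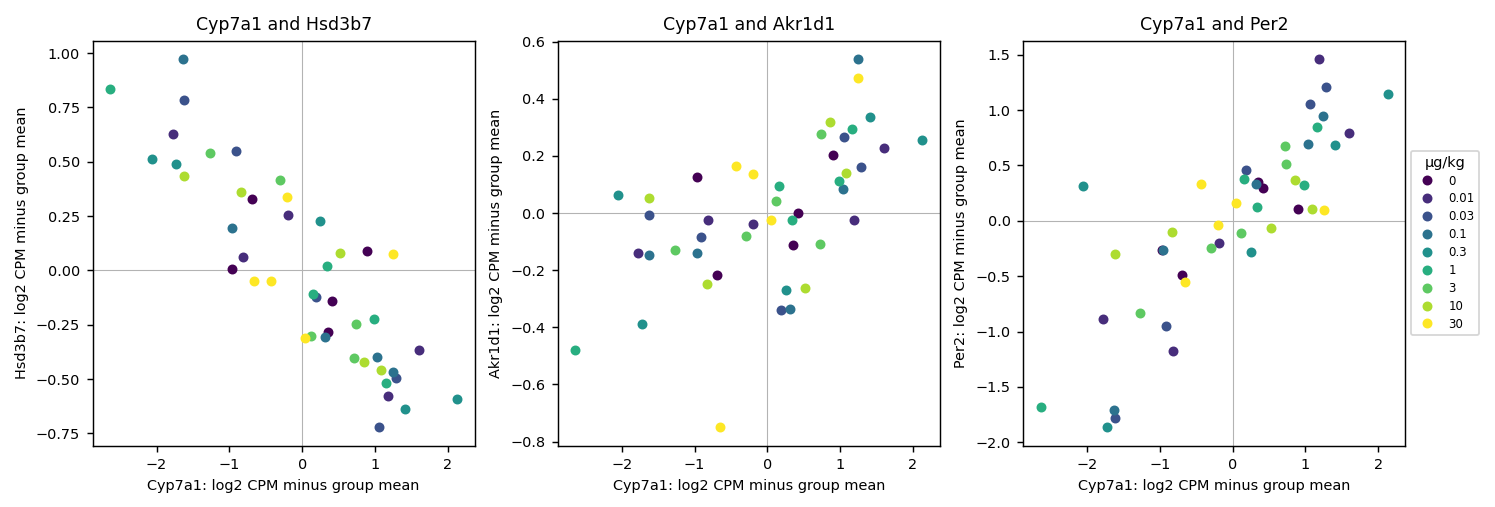
Deviation of each mouse from its group mean in log2 CPM, with Cyp7a1 on the horizontal axes and Hsd3b7, Akr1d1 or Per2 on the vertical axes. The 45 points are mice coloured by dose in µg/kg. Hsd3b7 declines along Cyp7a1 (r = -0.87), while Akr1d1 (r = 0.58) and Per2 (r = 0.83) climb, with mice of every dose along each cloud.

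For each of the 10 genes the single most similar gene elsewhere was sought among 12402 genes with a mean of at least 1 CPM, by Pearson's r of log2 CPM over the 45 livers, given as a description that includes the differences between doses. Hsd3b7 was closest to Sept9, a septin (r 0.94), Slc27a5 to Ndrg2 (0.92) and Baat to Slc17a3, an organic anion carrier (0.91). Akr1d1 was closest to Ugt2a3, a glucuronosyltransferase (0.87), Cyp7a1 to Nampt, the rate-limiting enzyme of NAD salvage (0.85), and Cyp27a1 to Cyp2c54, a cytochrome P450 (0.84). Cyp39a1 paired with Gfra1 (0.78), Cyp7b1 with Ugt1a10 (0.78), Amacr with Acaa1a, a peroxisomal thiolase (0.66), and Cyp8b1 with Ubr4 (0.65). Cyp2c54 and Ugt1a10 belong to families with near-identical or shared sequence, so their reads are uncertain.

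The windows of 250 bases upstream of the RefSeq start (GRCm38.p6) were at hand for 4 of the 10 genes, Akr1d1, Cyp27a1, Cyp8b1 and Hsd3b7. The other 6 were Cyp7a1, Cyp7b1, Cyp39a1, Amacr, Slc27a5 and Baat. Shown are Cyp27a1 and Akr1d1, which fell together at 30 µg/kg, and Cyp8b1, whose level did not separate from vehicle, each 5′ to 3′ on the strand of the gene. They lie at chr1:74713285-74713534 on the plus strand, chr6:37529923-37530172 on the plus strand and chr9:121916306-121916555 on the minus strand. Capitals mark the letters found by the search.
Cyp27a1: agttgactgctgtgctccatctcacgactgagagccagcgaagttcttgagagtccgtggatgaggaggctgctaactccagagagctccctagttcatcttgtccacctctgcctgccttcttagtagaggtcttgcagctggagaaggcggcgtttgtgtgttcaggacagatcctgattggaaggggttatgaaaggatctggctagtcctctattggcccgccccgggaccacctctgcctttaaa
Akr1d1: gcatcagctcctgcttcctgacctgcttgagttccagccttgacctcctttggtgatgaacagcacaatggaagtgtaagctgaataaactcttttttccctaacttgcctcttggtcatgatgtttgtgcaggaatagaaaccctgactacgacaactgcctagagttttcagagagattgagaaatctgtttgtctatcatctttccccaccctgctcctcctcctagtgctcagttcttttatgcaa
Cyp8b1: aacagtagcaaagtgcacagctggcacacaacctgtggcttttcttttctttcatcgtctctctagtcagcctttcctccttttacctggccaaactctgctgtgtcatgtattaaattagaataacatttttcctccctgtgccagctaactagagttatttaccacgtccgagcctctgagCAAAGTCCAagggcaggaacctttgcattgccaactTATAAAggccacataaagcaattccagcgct
On either strand, the core of the dioxin response element, GCGTG, was in 0 of the 4 windows and in 28.2% of 32851 windows of the same length. A core of the HNF4 element, CAAAGTCCA, was in the Cyp8b1 window, 67 bases before the start, and in 0.384% of all windows. The TATA box letters TATAAA were also in Cyp8b1 alone of the 4, 31 bases before the start, and in 12.4% of all windows. The LRH-1 letters CAAGGTCA were in 0 of the 4 and in 1.33% of all windows. None of the matches overlapped another, and they describe letters only.

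Of 15 other genes of the pathway 3 were called higher and 4 lower at 30 µg/kg, where 15.5% and 14.1% of all genes were. Counts this small and not far from those shares are no result about the list as a whole. Cyp2c70, which makes the muricholic acids of rodents, fell most, by 1.60 ± 0.19 on the log2 scale (adjusted p = 9.7e-09), from 664.4 to 840.7 CPM in vehicle to 145.4 to 387.5 CPM. Its mice were also all below vehicle at 3 and 10 µg/kg, as was the case for 3.36% and 6.13% of all genes. Fdxr, the reductase that feeds electrons to mitochondrial P450s such as Cyp27a1, fell by 0.61 ± 0.14 (adjusted p = 0.000678) and the peroxisomal carrier Abcd3 by 0.58 ± 0.13 (adjusted p = 0.000498). Acox2, the peroxisomal oxidase of the bile acid side chain, rose by 0.93 ± 0.19 (adjusted p = 0.000148). Ch25h, which makes an oxysterol, was called higher on 0 to 1 reads per vehicle library and 3 to 9 reads per library at 30 µg/kg, so no fold is given. The third that was higher was Scp2 (0.32, adjusted p = 0.0483) and the fourth that was lower Slc27a2 (-0.57, adjusted p = 0.0228). Alone of these called genes, Scp2 passed neither edgeR's F test over all groups (adjusted p = 0.169) nor its trend over doses (adjusted p = 0.0564).

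Of 16 regulators tested 4 were lower and 0 higher, beside the same 14.1% and 15.5% of all genes (0 of 16 higher also by DESeq2, and 5 of 16 with an unadjusted p under 0.05 in either direction, for which no share of all genes was computed). Lower were Ppargc1a, a coactivator (-0.77 ± 0.24, adjusted p = 0.0117), Mafg, a transcriptional partner protein (-0.55 ± 0.10, adjusted p = 7.58e-05), Nr5a2, the receptor LRH-1 (-0.45 ± 0.16, adjusted p = 0.0302), and Nr1h3, the oxysterol receptor LXRα (-0.44 ± 0.09, adjusted p = 0.000179). Ppargc1a had group means of 19.6 to 24.5 CPM at every TCDD dose against 33.4 in vehicle, and passed neither the F test over all groups (adjusted p = 0.202) nor the trend over doses (adjusted p = 0.82), whereas the other 3 passed both. The bile acid receptor Nr1h4 was at -0.31 ± 0.16 (adjusted p = 0.15) and Nr0b2, its target and a corepressor, at 0.11 ± 0.35 (adjusted p = 0.847). Fgfr4, the receptor for the intestinal hormone that restrains Cyp7a1, was at -0.18 ± 0.13 (adjusted p = 0.33) and its partner Klb at -0.58 ± 0.24 (adjusted p = 0.0581).

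Among 15 transporters 6 were lower (14.1% of all genes were) and 2 higher (15.5% of all genes were). Slc10a1, the sodium-dependent bile acid uptake carrier, fell by 0.65 ± 0.12 (adjusted p = 3.32e-05). Of the organic anion carriers Slco1a1 was at 7.43 to 188 CPM in vehicle and 0.0902 to 1.34 CPM at 30 µg/kg (log2 -6.80 ± 1.11, adjusted p = 6.46e-06), Slco1a4 fell by 1.66 ± 0.25 (adjusted p = 1.89e-06) and Slco1b2 by 0.90 ± 0.13 (adjusted p = 1.26e-06). Abcb1a, an efflux pump, fell by 1.397 ± 0.33 (adjusted p = 0.00118). Abcc4, a basolateral efflux pump, rose by 2.01 ± 0.35 (adjusted p = 1.62e-05), from 4.55 ± 1.27 CPM (SD, n = 5) in vehicle to 18.4 ± 7.64 CPM. Abcb11, the canalicular bile salt pump, was at -0.54 ± 0.25 (adjusted p = 0.104) and Slc51b at -1.28 ± 0.53 (adjusted p = 0.0656), on 7 to 18 reads per vehicle library and 1 to 20 at 30 µg/kg. The sixth lower gene was Abcg8 (-0.53) and the second higher one Abcb4 (0.44), both named after their values were seen. Alone of the called transporters, Abcb4 passed neither edgeR's F test over all groups (adjusted p = 0.352) nor its trend over doses (adjusted p = 0.131).

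**Figure D4:**
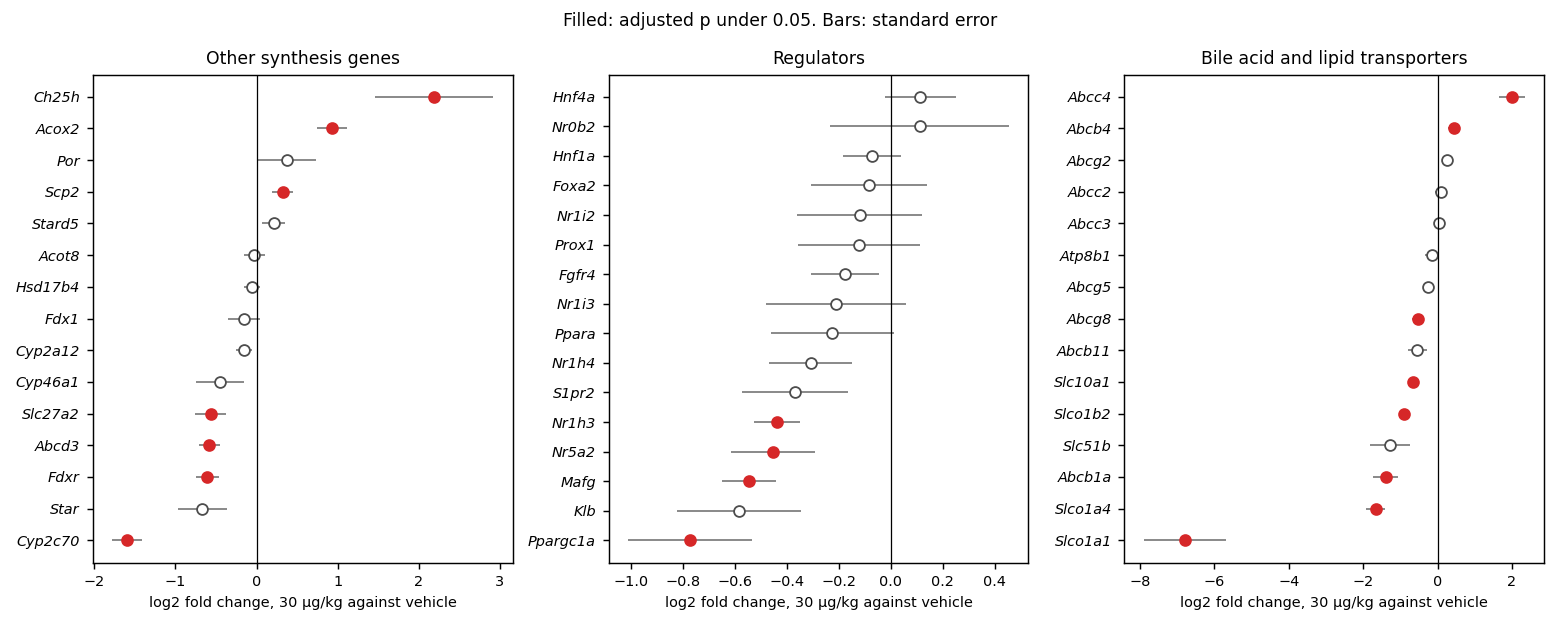
Log2 fold change at 30 µg/kg against vehicle (horizontal axes, ± standard error of the edgeR fit, 5 mice per group) of 15 other synthesis genes, 16 regulators and 15 transporters, each sorted by change and on its own scale. Filled points have an adjusted p under 0.05, with Cyp2c70 (-1.60), Ppargc1a (-0.77) and Slco1a1 (-6.80) lowest in their panels. Ch25h rests on 0 to 9 reads per library in these 2 groups.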

How the data were processed

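Total liver RNA of 45 mice was sequenced (TruSeq libraries, single 50-base reads per the study's methods). The authors deposited raw counts of reads per gene, made by trimming, alignment to GRCm38 with Bowtie and TopHat and counting on Ensembl release 74 genes with HTSeq in its intersection-nonempty mode. The submitters' processing notes list FastQC 0.11.2, TopHat 1.4.1, SAMtools 0.1.19, HTSeq 0.6.1 and DESeq. Reads aligning to more than 1 place were not counted, and whether counting used strand is not given in the sources used here. Samples were sequenced in random pools that the labels do not give, so no comparison within pools could be made. Groups came from the dose labels, and no 2 files held identical values. Reads on no gene, 10.7% to 18.4% of uniquely aligned reads, were left out. The labels give each liver its own identifier and no litter, cage or batch, and p-values measure the spread between these samples.

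Genes with more than 4 reads in any sample were fitted with edgeR 4.0.16 in R 4.3.3 (TMM, 1 coefficient per group, all 45 samples, quasi-likelihood F test). Standard errors were derived from the F statistic, and p-values were adjusted by the Benjamini-Hochberg method within each dose over all 17464 genes. This takes the place of the study's semi-parametric normalization and empirical Bayes test. Alternatives were other size factors, other gene filters, 2-group fits, adjustment over all doses, a 2-fold threshold, DESeq2 1.42.0 and leaving out each mouse. Log2 CPM used a prior count of 2. Exact permutation tests compared 5 mice with 5 and were two-sided. Symbols and positions are from GENCODE on GRCm38, which matched 37607 of 39179 identifiers, and promoter windows from RefSeq on GRCm38.p6. Level per kilobase used the merged exon length.

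The 10 genes, the lists and the markers were chosen with earlier results of these data known. Named from each pathway list were up to 5 called genes with the largest absolute change at 30 µg/kg, and always Nr1h4, Nr0b2, Fgfr4, Klb, Slc10a1, Abcb11, Slc51b and Cyp2c70. Fgf15, Gpbar1 and Slc51a had 4 reads or fewer in every mouse, and 1 hepatocyte symbol matched no gene. The fits were tested before use on simulated data in which few genes changed. By edgeR 84.1% of 107 genes with a log2 change of 1 at 30 µg/kg were called there, and 0.0348% of 17264 unchanged genes. Changes under 2-fold, the size of the called changes of the 10 genes, were not simulated at that dose.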

Additional observations from a re-analysis of the deposited data

Results flagged for a closer look

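In 9 of 90 sets of 5 mice (10 genes in 9 groups) 1 mouse lay far from the other 4 by Dixon's gap test, where chance gives about 5%. Cyp7a1 was at 63.04 CPM in 1 µg/kg replicate 2 against 437.7 to 877.7 CPM in the other 4 mice. Cyp8b1 was at 109.9 CPM in 0.3 µg/kg replicate 4 against 193.5 to 235.9, and at 41.1 CPM in 3 µg/kg replicate 2 against 94.9 to 125.5. Cyp7b1 was at 31.1 CPM in 0.1 µg/kg replicate 5 against 42.5 to 46.8, and at 37.7 CPM in 30 µg/kg replicate 4 against 19.4 to 22.1. Cyp39a1 was at 52.8 CPM in 3 µg/kg replicate 1 against 83.5 to 95.2 CPM, and Amacr at 141.3 CPM in 3 µg/kg replicate 2 against 124.2 to 128.0. Slc27a5 was at 765.7 CPM in 3 µg/kg replicate 5 against 975.2 to 1074 CPM, and Baat at 337.9 CPM in vehicle replicate 1 against 298.3 to 306.0.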

How the results depend on the processing

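Of 816 values recomputed under alternatives, 736 kept their direction and their side of the threshold. Without normalization beyond library size the median log2 change of all genes at 30 µg/kg moved from 0.02 to 0.23. The 10 genes then had 1 called at 0.3, 0 at 10 and, at 30 µg/kg, 1 higher and 4 lower, with Amacr at 0.26 (adjusted p = 0.0101 by edgeR) beside that median. Cyp39a1 was at -0.41 (adjusted p = 0.156), Cyp8b1 turned to 0.11 (0.088 as a difference of mean log2 CPM), 3 genes fell and 1 rose over the doses, 1 regulator was higher and 2 were lower, 4 other synthesis genes were higher and 3 lower, 3 transporters were higher and 5 lower, and 0 clock genes were lower. With every gene of at least 1 read tested, 0 of the 10 genes were called at 3 and 1 at 10 µg/kg. In fits of vehicle and 1 dose, 1 was called at 0.3 and 4 at 10 µg/kg, and 6 clock genes were lower at 30 µg/kg. With adjustment over all doses, 1 was called at 0.3, 0 at 3 and 1 at 10 µg/kg, and at 30 µg/kg 1 other synthesis gene and 1 transporter were higher, 0 clock genes were lower and Cyp39a1 had an adjusted p of 0.135. When 2-fold was also required, 0 of the 10 were called at 1, 3, 10 or 30 µg/kg, 1 other synthesis gene was higher and 1 lower, 0 regulators were lower, 1 transporter was higher and 3 lower, and 0 clock genes were lower. DESeq2 called 1 at 0.3 µg/kg. The cause of these shifts was not tested, apart from the stricter or wider criteria themselves.

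Leaving out 1 mouse at a time, the called number of the 10 genes ranged from 0 to 1 at the doses of 1 and 3 µg/kg, from 1 to 2 at 10 µg/kg and, with 0 higher, from 4 to 6 at 30 µg/kg. Lists at 30 µg/kg ranged from 1 to 3 other synthesis genes higher and 3 to 5 lower (1 higher without 30 µg/kg replicate 2), 2 to 5 regulators lower (2 without vehicle replicate 2), 1 to 2 transporters higher (1 without vehicle replicate 1, 4 or 5 or 30 µg/kg replicate 2 or 3) and 0 to 1 clock genes lower (0 without vehicle replicate 2 or 4 or 30 µg/kg replicate 1, 2 or 3). Over all groups 5 to 7 genes were called and 4 to 7 fell over the doses. Cyp8b1 at 30 µg/kg ranged from -0.30 to 0.027 (the latter without vehicle replicate 5) and Amacr from -0.018 (without 30 µg/kg replicate 5) to 0.083, neither of them called before or after. Cyp7b1 at 30 µg/kg became lower by the call with an adjusted p of 0.0462 without vehicle replicate 1 and 0.0454 without 0.01 µg/kg replicate 5. No paired analysis was possible because the labels give each mouse its own identifier and no replicate number that groups share. The 10 genes had at least 276 reads in every mouse, while Ch25h, Slco1a1, Slc51b and the clock genes Npas2, Arntl and Ciart had libraries with under 4 reads.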
